A study of Mus musculus with 3 samples.

Results

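The 8 genes described here were Id1, Id2, Id3 and Id4 with Smad6, Smad7, Smad9 and Bambi, which are grouped as genes that answer to bone morphogenetic protein (BMP) signalling. They were taken by name from the 22658 deposited gene models, and each name matched 1 model. The set was chosen by pathway and with the RPKM values of these 3 libraries already known, the ratios of Id1, Id2 and Id3 among them, so its values in every comparison are a description and not a test. Nascent RNA was measured by Bru-seq, in which bromouridine is fed to cells briefly and the RNA that holds it is captured and sequenced, so that the reads report RNA made during labelling. The cells were NB490, a mouse pancreatic cancer line, selected with puromycin for stable carriage of a short hairpin RNA (shRNA) that doxycycline switches on and that targets PDX1, a transcription factor of pancreas development. All libraries came from cells carrying this shRNA. There were 3 libraries, 1 for each condition. These were uninduced cells, cells given doxycycline for 48 h, and cells that had grown out under it for over 3 weeks, called grown-out below. Each was labelled with 2 mM bromouridine for 30 min. Cells given doxycycline without the shRNA were not analysed here, so the agent and the knockdown cannot be told apart.

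BMP ligands bring together type I and type II receptors on the cell surface, and the type I receptors phosphorylate SMAD1, SMAD5 and SMAD9, which enter the nucleus with SMAD4. The Id genes are among the classic direct targets of these SMADs. ID proteins have a helix-loop-helix domain but no DNA-binding region, and by pairing with E proteins they keep them from forming DNA-binding dimers with tissue-restricted partners, which in the pancreas include PTF1A in acinar cells and NEUROG3 in endocrine precursors. SMAD6 and SMAD7 are inhibitory SMADs that act as feedback brakes, SMAD6 mainly on BMP and SMAD7 on both TGF-beta and BMP signalling, and BAMBI is a pseudoreceptor without a kinase domain.

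The promoters of Id2 and Id3 are shown because these genes shared the pattern described below and BMP SMADs are known to act at control regions of Id genes. They are RefSeq sequences on build GRCm38.p6, running from 250 bases before to 50 bases after the gene start and written in the direction of transcription. Capitals mark matches to GGCGCC, letters bound by SMAD1 and SMAD5 complexes, and to CAGAC, letters bound by SMADs generally, on either strand. The Id2 promoter lies at chr12:25096043-25096342 on the minus strand and the Id3 promoter at chr4:136143572-136143871 on the plus strand.
Id2: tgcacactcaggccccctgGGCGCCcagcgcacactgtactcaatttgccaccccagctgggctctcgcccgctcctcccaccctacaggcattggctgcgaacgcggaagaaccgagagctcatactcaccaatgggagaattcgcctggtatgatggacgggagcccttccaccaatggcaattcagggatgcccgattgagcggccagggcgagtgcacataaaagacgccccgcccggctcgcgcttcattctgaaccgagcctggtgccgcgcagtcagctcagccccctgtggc
Id3: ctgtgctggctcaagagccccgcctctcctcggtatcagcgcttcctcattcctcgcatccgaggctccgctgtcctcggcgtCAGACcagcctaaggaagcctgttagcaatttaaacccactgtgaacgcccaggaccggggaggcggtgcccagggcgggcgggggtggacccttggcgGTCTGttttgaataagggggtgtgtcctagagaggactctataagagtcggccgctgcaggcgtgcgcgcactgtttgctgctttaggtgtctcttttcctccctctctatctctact

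The Id2 window held GGCGCC once, 231 bases before the gene start, and no CAGAC. The Id3 window held CAGAC 2 times, with first bases 167 and 68 bases before the start, and no GGCGCC. Of all 32851 promoters in the table, 11.9% held GGCGCC and 49.6% held CAGAC. An E-box, CANNTG, which is the letters that E protein dimers bind, occurred 1 time in the Id2 window and 0 times in the Id3 window, against 72.3% of all promoters with at least 1. The GC box GGGCGG occurred 1 time in Id2 and 2 times in Id3, where the matches overlapped, and 35.7% of all promoters held it. The G and C content was 63.3% for Id2 and 60% for Id3, against a median of 52.7% over all promoters. Promoters of 5 of the 8 genes were searched. Chromosome 18, where Smad7 and Bambi lie, was left out of the search of members, so nothing is known here of their promoters. Smad6, at chr9:64022010-64022309 on the minus strand, held neither GGCGCC nor CAGAC, whereas Id4 and Smad9 held GGCGCC 1 time each. The Id1 promoter was not used here. A match is a description of the letters and says nothing about binding in these cells.

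Levels are given as deposited RPKM, which are read counts divided by model length and library size, over introns and exons together. Read totals were worked back from the deposited counts, model lengths and RPKM, as the median over models. They were 51006774 for uninduced, 48418864 for 48 h and 41632296 for grown-out cells. A level carries an exact Poisson 95% interval, and a fold, the ratio of 2 RPKM values, an exact conditional binomial 95% interval. With 1 library per condition these cover counting error only, no p-value was computed, and library and condition cannot be told apart. Genes are called measured from a mean of 0.5 RPKM upward over the libraries and a model length of 300 bp upward, which held for 7915 models. Nascent RNA of Pdx1, the shRNA target, was at 1.59, 1.05 and 1.41 RPKM in uninduced, 48 h and grown-out cells. Since the hairpin acts on mature mRNA, nascent levels do not check the knockdown. Of 6 epithelial markers, Krt8, Krt18, Krt19, Krt7 and Cdh1 were measured. At 48 h against uninduced cells 1 of these 5, Krt18, was higher and 4 were lower beyond counting error, where 30.1% of all measured genes were higher and 30.0% lower. Grown-out cells had 3 higher and 1 lower than uninduced cells (33.6% and 29.5% of all). Against 48 h cells they had 4 higher and 1 lower (35.6% and 32.0% of all). None of the 5 was past 2-fold in any comparison, where at most 0.720% of all measured genes were in any direction. Krt19 had 13.6, 8.01 and 10.1 RPKM in time order, and was 1.7-fold lower at 48 h than in uninduced cells (1.53 to 1.89). Krt8 had 10.8, 9.61 and 11.4 RPKM, Krt7 11.2, 10.4 and 11.8 RPKM, Cdh1 4.81, 4.63 and 5.35 RPKM, and Krt18 14.2, 15.1 and 13.5 RPKM. The part of these markers in the results below was not tested. Epcam, also an epithelial marker, was far lower, at 0.0984, 0.0736 and 0.027 RPKM. Id1, Id3 and Smad6 are known for high expression in endothelium. The 7 endothelial markers summed to 0.221, 0.213 and 0.224 RPKM in time order, none was measured, and Cdh5 and Emcn had 0 reads in both doxycycline libraries. Fibroblast markers summed to at most 0.0891 RPKM in any library, with Lum and Pdgfrb at 0 reads in all, and the immune markers to at most 1 RPKM, nearly all of it Cd68.

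Of the 8 genes, 5 were measured, namely Id1, Id2, Id3, Smad6 and Smad7. Id3 was nearest to the expression minimum from above, with a mean of 0.73 RPKM. Its levels were 0.646, 0.328 and 1.22 RPKM in uninduced, 48 h and grown-out cells. The first 2 average under 0.5 RPKM, so Id3 passed the minimum only through the grown-out library, where it was highest. Smad9 was nearest from below, with a mean of 0.02 RPKM. Id1, Id2 and Id3 were lower at 48 h than in uninduced cells and, in grown-out cells, higher than in either. Smad7 moved the same way by less, and Smad6 was lower at 48 h and near the uninduced level in grown-out cells. In a bulk library, fewer cells transcribing a gene and less RNA per cell cannot be told apart.

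**Figure D1:**
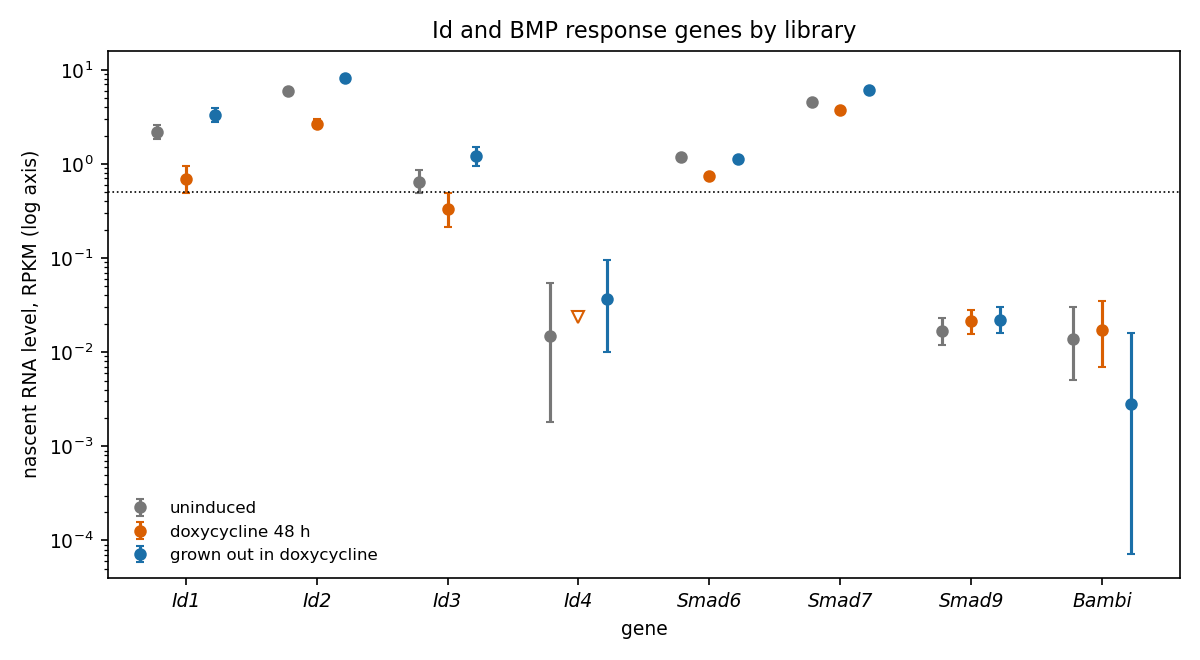
Nascent RNA level in RPKM (log axis) of the 8 genes in uninduced, 48 h and grown-out cells, with bars for the exact Poisson 95% interval, an open triangle at the 3-read limit where no read was counted, and a dotted line at the minimum of 0.5 RPKM. The 48 h point is the lowest of the 3 for Id1, Id2, Id3, Smad6 and Smad7, and Id4, Smad9 and Bambi lie below 0.1 RPKM throughout.

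Id1 (chromosome 2, 152562010 to 152563146, plus strand) lies on a model of 1137 bp, the shortest of the set. Its nascent RNA was at 2.19 RPKM (1.83 to 2.61) in uninduced cells, 0.69 RPKM (0.488 to 0.947) at 48 h and 3.31 RPKM (2.82 to 3.88) in grown-out cells, on 127, 38 and 157 reads. The 3 intervals did not overlap. Id1 was 3.17-fold lower at 48 h than in uninduced cells (2.19 to 4.69), 1.51-fold higher in grown-out than in uninduced cells (1.19 to 1.93), and 4.80-fold higher in grown-out than in 48 h cells (3.35 to 7.04). Coordinates are those of the deposited files. The only build the submitters' notes name is hg19, a human build, and the mouse build behind the coordinates is not given in the sources used here.

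Id2 (chromosome 12, 25778664 to 25780957, minus strand) was the most transcribed Id gene in every library. It had 5.96 RPKM (5.53 to 6.42) in uninduced cells, 2.67 RPKM (2.38 to 3.00) at 48 h and 8.26 RPKM (7.69 to 8.86) in grown-out cells, on 698, 297 and 789 reads. The intervals again did not overlap. The level was 2.23-fold lower at 48 h than in uninduced cells (1.94 to 2.56). In grown-out cells it was 1.39-fold higher than in uninduced cells (1.25 to 1.54) and 3.09-fold higher than at 48 h (2.70 to 3.54). Among measured genes, Id2 stood at or above 90.9% of levels in uninduced, 71% in 48 h and 94.3% in grown-out cells.

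Id3 (chromosome 4, 135699737 to 135701307, plus strand) had the fewest reads of the measured members. Its level was 0.646 RPKM (0.485 to 0.851) in uninduced cells, 0.328 RPKM (0.213 to 0.485) at 48 h and 1.22 RPKM (0.956 to 1.51) in grown-out cells, on 51.7, 25 and 79.5 reads. The grown-out interval lay above both others, while the upper bound at 48 h met the lower bound in uninduced cells. Id3 was 1.97-fold lower at 48 h than in uninduced cells (1.2 to 3.32), 1.88-fold higher in grown-out than in uninduced cells (1.30 to 2.69) and 3.70-fold higher in grown-out than in 48 h cells (2.32 to 6.02).

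Id4 (chromosome 13, 48356796 to 48359405, plus strand) was hardly transcribed, with 2, 0 and 4 reads in uninduced, 48 h and grown-out cells. The 0 reads at 48 h allow a level of up to 0.0237 RPKM, counting 3 reads as the limit. No fold is given for 48 h against uninduced cells, and grown-out over uninduced, at 2.45-fold, had an interval from 0.351 to 27.1.

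Smad6 (chromosome 9, 63800883 to 63869866, minus strand) has a model of 68984 bp, so that most of its 2474 to 4192 reads per library could come from introns. Its level was 1.19 RPKM (1.16 to 1.23) in uninduced cells, 0.741 RPKM (0.712 to 0.770) at 48 h and 1.13 RPKM (1.09 to 1.16) in grown-out cells. The 48 h level stood apart, and the intervals of the others touched. Smad6 was 1.61-fold lower at 48 h than in uninduced cells (1.53 to 1.69) and 1.52-fold higher in grown-out than in 48 h cells (1.44 to 1.60). Grown-out cells had 1.06-fold less than uninduced cells (1.01 to 1.11).

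Smad7 (chromosome 18, 75527019 to 75555588, plus strand), a target of TGF-beta as well as BMP signalling, was the most transcribed SMAD among the 8. It had 4.49 RPKM (4.38 to 4.60) in uninduced cells, 3.78 RPKM (3.68 to 3.89) at 48 h and 6.14 RPKM (6 to 6.28) in grown-out cells. All 3 intervals were separate. The level was 1.19-fold lower at 48 h than in uninduced cells (1.14 to 1.23), 1.37-fold higher in grown-out than in uninduced cells (1.32 to 1.41) and 1.62-fold higher in grown-out than in 48 h cells (1.56 to 1.68). Per length, Smad7 exceeded Smad6 by 3.77, 5.11 and 5.45 times in uninduced, 48 h and grown-out cells.

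Smad9 (chromosome 3, 54559504 to 54605179, plus strand), the third SMAD that BMP receptors phosphorylate, had 0.0167, 0.0213 and 0.0221 RPKM in uninduced, 48 h and grown-out cells, on 39, 47 and 42 reads. The intervals of its folds against uninduced cells included no change, running from 0.813 to 1.99 at 48 h and from 0.833 to 2.09 in grown-out cells. Bambi (chromosome 18, 3507955 to 3516402, plus strand) had 6, 7 and 1 reads in the same order. Its ratio of grown-out over 48 h was 0.166, with an interval from 0.00369 to 1.29.

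**Figure D2:**
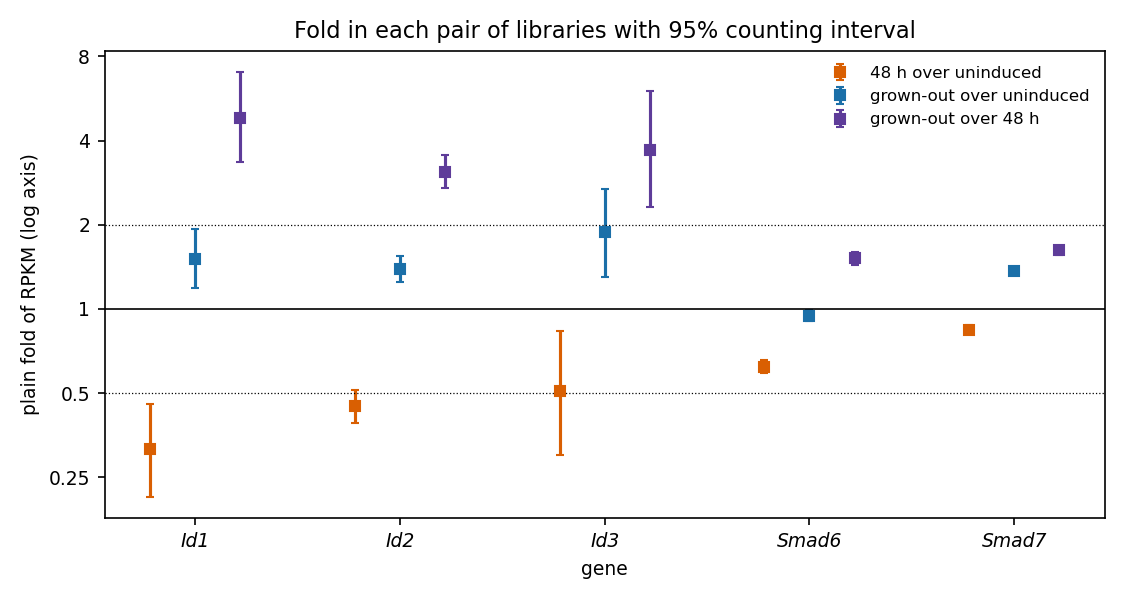
Plain fold of RPKM (log axis) for the 5 measured genes in each pair of libraries, with bars for the exact conditional binomial 95% interval and dotted lines at 2-fold. Every 48 h over uninduced point lies below 1, and Id1, Id2 and Id3 lie above 2 for grown-out over 48 h.

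The order of levels differed between libraries. In uninduced cells it ran Id2, Smad7, Id1, Smad6 and Id3, with no overlap of intervals between neighbours. At 48 h Smad7 came before Id2, and Smad6 and Id1, at 0.741 and 0.69 RPKM, overlapped. In grown-out cells Id2 was again highest, followed by Smad7 and Id1, and Id3 and Smad6, at 1.22 and 1.13 RPKM, overlapped. Id2 made up 67.7%, 72.4% and 64.4% of the summed Id RPKM in uninduced, 48 h and grown-out cells, Id1 24.8%, 18.7% and 25.8%, and Id3 7.32%, 8.90% and 9.48%.

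Past 2-fold means here a log2 ratio of RPKM plus 0.05 of at least 1 in size with a fold interval that excludes no change. At 48 h against uninduced cells, Id1 and Id2 were past 2-fold lower, where 0.720% of the 7915 measured genes were, and 0 of the 5 were past 2-fold higher, where 0.0253% were. Id3, with a log2 ratio of -0.88, was just outside. In grown-out against uninduced cells 0 of the 5 were past 2-fold higher, where 0.164% of measured genes were, and 0 were past 2-fold lower, where 0.708% were. In grown-out against 48 h cells Id1, Id2 and Id3 were past 2-fold higher, where 0.708% of measured genes were, and 0 were past 2-fold lower, where 0.316% were. This last comparison reuses both doxycycline libraries, and the earlier comparisons share the uninduced library, so none is separate evidence from the others. The genes were picked with such values known, Id3 passed the expression minimum only through the grown-out library, and nothing is read from these counts.

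A looser count takes every fold interval that excludes no change. By it all 5 measured genes were lower at 48 h than in uninduced cells, as were 30.0% of measured genes, while 30.1% of measured genes were higher. In grown-out against uninduced cells, Id1, Id2, Id3 and Smad7 were higher, as were 33.6% of measured genes, and Smad6 was lower, as were 29.5%. In grown-out against 48 h cells all 5 were higher, as were 35.6% of measured genes, while 32.0% were lower. The median log2 ratio of the 5 was -0.88, 0.47 and 1.61 in these comparisons, where that of all measured genes was 0.00, 0.01 and 0.01. The -0.88 is the ratio of Id3, which passed the expression minimum only through the grown-out library. The set was chosen with such values known, so nothing is read from these counts or medians.

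Placed among all measured genes by log2 ratio, Id1 at 48 h against uninduced cells had a ratio of -1.60, and 7 genes lay below it. Id2 at -1.14 had 37 below it, Id3 78, Smad6 at -0.65 had 194 and Smad7 at -0.24 had 1227. In grown-out against 48 h cells, Id1 at 2.18 had 1 gene above it, Id3 at 1.74 had 4, Id2 at 1.61 had 8, Smad7 at 0.69 had 162 and Smad6 at 0.57 had 313. In grown-out against uninduced cells, Id3 at 0.86 had 25 genes above it, Id1 at 0.59 had 89, Id2 at 0.47 had 209 and Smad7 at 0.45 had 246, whereas Smad6 at -0.08 lay within the bulk. The Id genes lay farther out than the inhibitory SMADs in the comparisons that involve the 48 h library. Their ratios were known when the set was chosen, so this order is a description. Id1, Id2 and Id3 had 38, 297 and 25 reads at 48 h, against 2474 for Smad6 and 5234 for Smad7.

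**Figure D3:**
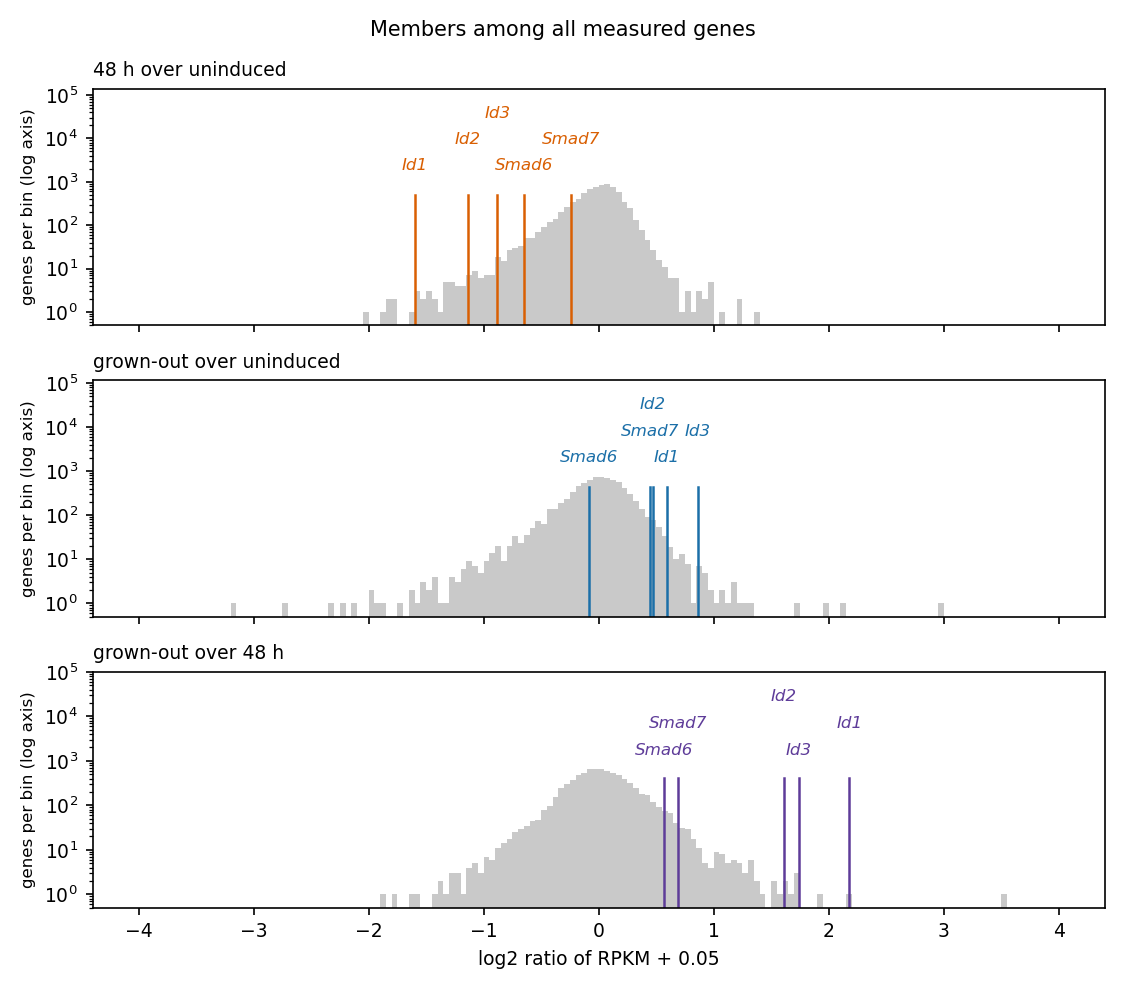
Histograms of the log2 ratio of RPKM plus 0.05 over the 7915 measured genes (bins on a log axis of gene number) in each pair of libraries, with coloured lines at Id1, Id2, Id3, Smad6 and Smad7. Id1 is at -1.60 in the upper panel and at 2.18 in the lower panel, and Smad6 sits near 0 in the middle panel.

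Folds of the 5 genes were set against each other in pairs, as the ratio of the 2 folds with a 95% counting interval on the log scale. The share of such pairs among all measured genes was not computed and the members were picked with their folds known. Nothing is therefore read from the numbers of pairs. At 48 h against uninduced cells, 6 of 10 pairs differed beyond counting error. The fold of Id1 was 0.703 times that of Id2 (0.478 to 1.04) and 0.620 times that of Id3 (0.340 to 1.13), so the Id genes could not be told apart in how far they were lowered. The fold of Id1 was 0.507 times that of Smad6 (0.352 to 0.731) and 0.374 times that of Smad7 (0.260 to 0.538). The fold of Smad6 was 0.737 times that of Smad7 (0.693 to 0.784). In grown-out against uninduced cells 4 of 10 pairs differed, and each of these 4 set Smad6 against another gene. In grown-out against 48 h cells 8 of 10 pairs differed. There the fold of Id1 was 1.55 times that of Id2 (1.06 to 2.27), and that of Smad6 was 0.937 times that of Smad7 (0.879 to 0.998).

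The genes that carry the BMP signal to the nucleus were near their uninduced levels. Of 10 receptor and coreceptor genes 6 were measured. None of the 6 was past 2-fold in any comparison, where at most 0.720% of all measured genes were in any direction. Nothing is read from this count. At 48 h against uninduced cells 1 of the 6 was higher and 2 were lower beyond counting error, where 30.1% of all measured genes were higher and 30.0% lower. Against uninduced cells, grown-out cells had 0 higher and 4 lower, where 33.6% of all were higher and 29.5% lower, and in grown-out against 48 h cells 0 were higher and 3 lower, where 35.6% of all were higher and 32.0% lower. Bmpr1a, a type I receptor, was 1.12-fold higher at 48 h (1.10 to 1.15), with 3.22 RPKM against 2.87 RPKM in uninduced cells. Bmpr2, the main type II receptor, had 2.39 RPKM both at 48 h and in uninduced cells and was 1.09-fold lower in grown-out cells (1.07 to 1.12). Acvr1, a further type I receptor, was 1.09-fold lower at 48 h and 1.13-fold lower in grown-out cells, and Acvr2b, an activin type II receptor, 1.19-fold and 1.25-fold lower.

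All 3 listed signal SMADs were measured. None was past 2-fold in any comparison, where at most 0.720% of all measured genes were in any direction, so nothing is read from this count. In each comparison 1 was higher and 2 were lower beyond counting error. Of all measured genes, 30.1% to 35.6% were higher and 29.5% to 32.0% lower by this rule. Smad1 had 2.21, 1.94 and 1.86 RPKM in uninduced, 48 h and grown-out cells and was 1.14-fold lower at 48 h (1.10 to 1.18) and 1.19-fold lower in grown-out cells (1.14 to 1.23) than in uninduced cells. Smad5 had 2.58, 2.40 and 2.93 RPKM, with grown-out cells 1.14-fold above uninduced cells (1.09 to 1.18). Smad4, the partner shared with TGF-beta signalling, had 2.99, 3.11 and 2.82 RPKM. Smad5 was thus lowest at 48 h and highest in grown-out cells, and Smad4 the reverse, each by less than 1.5-fold.

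The outer ends of the pathway were thinly transcribed. Of 14 BMP and related ligand genes, 0 were measured. Of 15 secreted antagonist genes only Twsg1, whose product modulates BMP access to receptors, was measured, and it was 1.19-fold higher at 48 h (1.12 to 1.26) and 1.08-fold higher in grown-out cells (1.02 to 1.15) than in uninduced cells. All 8 listed intracellular brakes were measured. At 48 h against uninduced cells 0 of the 8 were higher and 5 lower beyond counting error, against the same 30.1% and 30.0% of all measured genes. Grown-out cells had 1 higher and 5 lower than uninduced cells (33.6% and 29.5% of all), and in grown-out against 48 h cells 4 were higher and 3 lower (35.6% and 32.0% of all). Tob1, which restrains BMP SMADs, had 2.14, 1.36 and 1.70 RPKM in time order and was 1.58-fold lower at 48 h than in uninduced cells (1.35 to 1.85). Nedd4l, a ubiquitin ligase gene, was 1.33-fold lower (1.30 to 1.36), Smurf1, whose product marks BMP SMADs for degradation, 1.21-fold lower (1.17 to 1.26) and Skil, a SMAD corepressor gene, 1.22-fold lower (1.19 to 1.25).

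Other genes known to answer to BMP in various tissues did not all follow the Id genes. Of 13 listed, 3 were measured. Dlx2, a homeobox gene, had 0.439, 0.321 and 0.868 RPKM in uninduced, 48 h and grown-out cells, on 75, 52 and 121 reads, and reached the expression minimum only through the grown-out library. It was 2.71-fold higher in grown-out than in 48 h cells (1.94 to 3.82) and 1.98-fold higher than in uninduced cells (1.47 to 2.67), while its fold of 0.730 at 48 h had an interval that included no change (0.503 to 1.05). Runx2, a transcription factor gene of bone, was 1.23-fold lower at 48 h (1.21 to 1.25) and 1.17-fold higher in grown-out cells (1.15 to 1.18) than in uninduced cells. Gata3 was higher than in uninduced cells at both times, by 1.12-fold (1.02 to 1.23) and 1.72-fold (1.58 to 1.88). Atoh8, a BMP target in endothelium and liver, lay under the minimum at 0.165, 0.155 and 0.171 RPKM, with fold intervals that included no change in all 3 comparisons.

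Over all the pathway lists, 23 of 73 genes were measured. At 48 h against uninduced cells 4 were higher and 11 lower beyond counting error, where 30.1% of all measured genes were higher and 30.0% lower. The median log2 ratio was -0.09, where that of all measured genes was 0.00. In grown-out against uninduced cells 6 were higher and 13 lower (33.6% and 29.5% of all), with a median of -0.11 against 0.01 over all. In grown-out against 48 h cells 8 were higher and 11 lower (35.6% and 32.0% of all), with a median of -0.06 against 0.01 over all. Dlx2, in grown-out against 48 h cells, was the only 1 of the 23 past 2-fold in any comparison. In that comparison 0.708% of all measured genes were past 2-fold higher. Dlx2 reached the expression minimum only through the grown-out library, where it was highest, so nothing is read from this count.

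**Figure D4:**
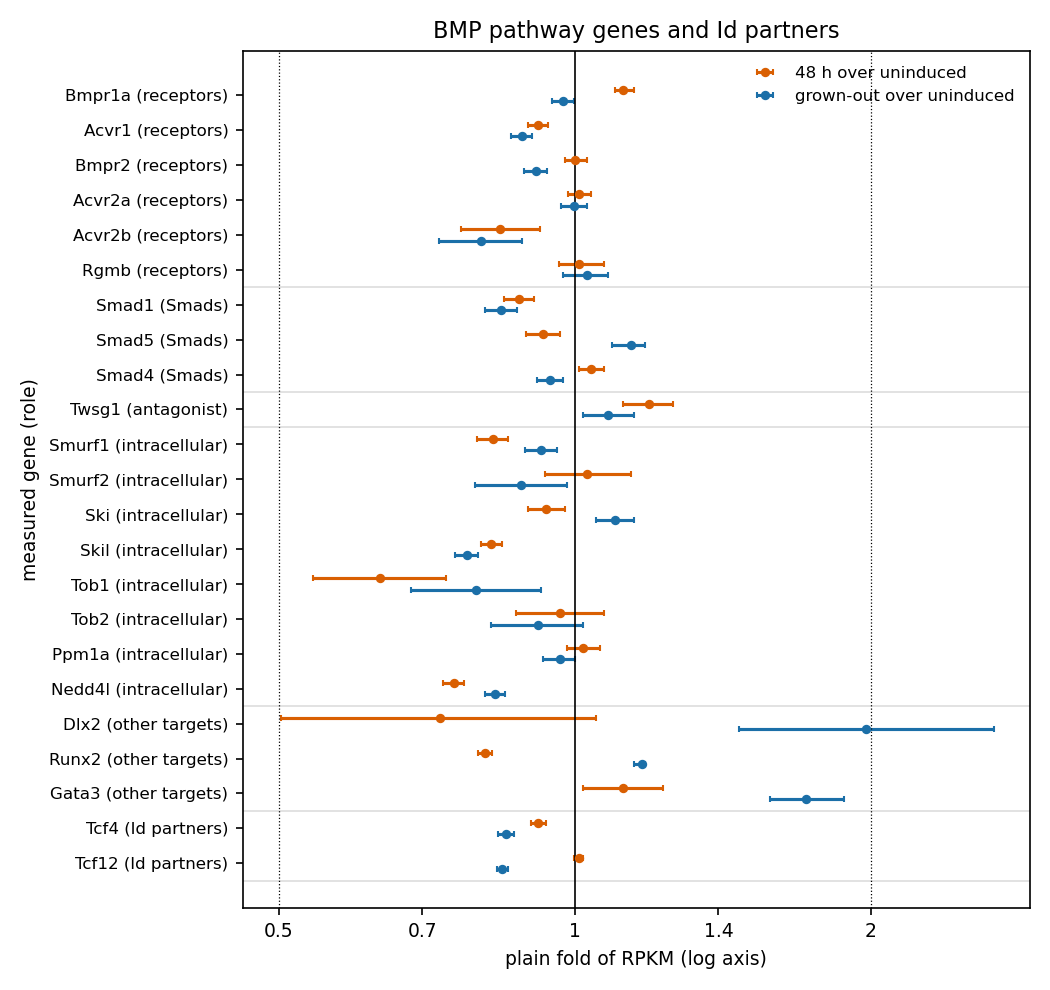
Plain fold of RPKM over uninduced cells (log axis) for the 23 measured genes of the pathway lists, ordered by role, at 48 h and in grown-out cells, with bars for the 95% counting interval and dotted lines at 2-fold. All points lie between the dotted lines, with Dlx2 in grown-out cells at 1.98-fold nearest to one of them.

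The E protein genes that encode the binding partners of ID proteins moved little. Tcf12 had 3.92, 3.96 and 3.31 RPKM in uninduced, 48 h and grown-out cells, and was 1.19-fold lower in grown-out than in uninduced cells (1.17 to 1.2). Tcf4 had 1.46, 1.34 and 1.24 RPKM, and was 1.09-fold lower at 48 h (1.07 to 1.11) and 1.18-fold lower in grown-out cells (1.15 to 1.2) than in uninduced cells. Tcf3 was just under the minimum, at 0.492, 0.395 and 0.478 RPKM. The summed Id RPKM was 8.81, 3.69 and 12.8 in time order and the summed E protein RPKM 5.87, 5.69 and 5.03, so that Id nascent RNA stood at 1.5, 0.648 and 2.55 times that of the E proteins. These are nascent RNA levels per length and do not measure protein. Of 7 tissue-restricted helix-loop-helix genes, among them Ptf1a and Neurog3, 0 were measured.

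**Figure D5:**
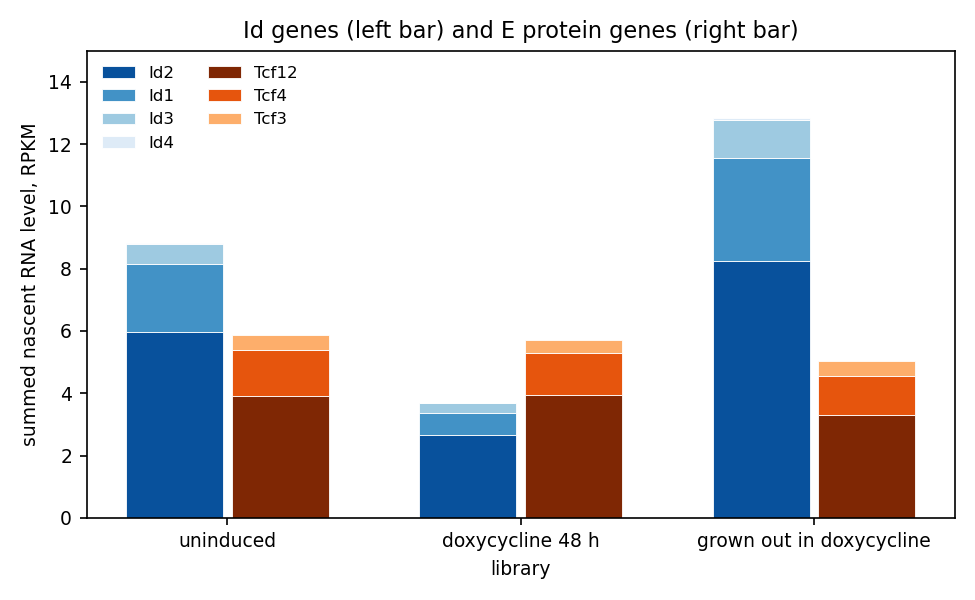
Summed RPKM of the Id genes (left bar, blue) and of the E protein genes (right bar, brown to orange) in each library, stacked by gene. The Id bar is lower than the E protein bar at 48 h, at 3.69 against 5.69 RPKM, and higher than it in uninduced and grown-out cells.

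The measured genes flanking each member were taken by position alone. Beside Id1, the nearest measured genes were H13, 27605 bp before it, and Bcl2l1, an anti-apoptotic gene 43257 bp after it. H13 was 1.08-fold and Bcl2l1 1.09-fold lower at 48 h than in uninduced cells, and in grown-out against 48 h cells H13 was 1.31-fold lower and Bcl2l1 had 6.05 against 6.04 RPKM. Beside Id2, Kidins220, 34101 bp away, had 1.23 RPKM at 48 h and 1.24 RPKM in uninduced cells. Sox11, 2238175 bp away on the other side, was 1.47-fold lower at 48 h than in uninduced cells. Beside Id3, Rpl11 had 10.2 RPKM at 48 h against 9.71 RPKM in uninduced cells. E2f2, a cell cycle transcription factor gene 27001 bp after Id3 on the same strand, had 1.06, 0.66 and 1.43 RPKM in uninduced, 48 h and grown-out cells. Its ratio of 48 h over uninduced was 0.625 (0.571 to 0.685), and it was 2.17-fold higher in grown-out than in 48 h cells (1.98 to 2.37). Smad3, which encodes a TGF-beta SMAD and lies 195081 bp before Smad6 on the same strand, was 1.24-fold lower at 48 h and 1.22-fold lower in grown-out cells than in uninduced cells. Dym, before Smad7, had 0.628 RPKM at 48 h and 0.589 RPKM in grown-out cells, against 0.572 RPKM in uninduced cells. No other flanking gene of the 5 members was past 2-fold in any comparison, where at most 0.720% of all measured genes were in any direction. No overlap with another deposited model, on either strand, was found for any of the 8.

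The genes most like Id1 were taken as the 5 measured, named genes outside the set of 8 whose pair of log2 ratios to uninduced cells lay nearest to that of Id1, over the 3 libraries. They were Ang, Hist3h2a, Bnc1, Cxcl5 and Frat2, at distances of 0.362 to 0.614 in log2 units. Bnc1, a transcription factor gene of basal epithelia, had 0.953, 0.354 and 1.10 RPKM in uninduced, 48 h and grown-out cells, and Cxcl5, a neutrophil chemokine gene, 4.15, 1.5 and 4.46 RPKM. Ang rested on 21, 6 and 20.4 reads. At 0.66, 0.199 and 0.785 RPKM in time order, it was under the expression minimum without the grown-out library. That all 5 were lower at 48 h follows from their choice by these ratios. In grown-out cells each had a smaller log2 ratio to uninduced cells, between 0.08 and 0.31, than the 0.59 of Id1. These grown-out ratios were also used in the choice, so nothing is read from that difference. The 5 nearest to Id2 were Hist3h2a, Cdc42ep2, Areg, Mgst3 and Bnc1, at distances of 0.199 to 0.322. Areg, which encodes the growth factor amphiregulin, had 4.54, 2.41 and 6.30 RPKM in time order. It was 2.61-fold higher in grown-out than in 48 h cells (2.42 to 2.81), a direction that also follows from the choice.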

How the data were processed

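Bru-seq was analysed in 3 libraries, 1 per condition. Per the submitters' processing notes, the tools were bedtools 2.16.2, TopHat 1.4.1, Bowtie 0.12.8 and CASAVA 1.8.2 and the build was hg19, a human build, although the models carry mouse symbols; settings are not given in the sources used here. Only 313 of 20046 models start within 10 bp of the GRCm38.p6 start, so the file coordinates were not mixed with that build. The deposited estimated counts are, per the file headers, reads per whole gene model, partly fractional. Per the file headers, the deposited RPKM scales them by model length and a library total. The deposited reads-per-base signal, made by the authors, was not needed.

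Computed here with Python 3.11.15 and scipy 1.17.1: log2 ratios of RPKM plus 0.05, plain folds, and intervals from counts rounded to whole reads. Models with repeated symbols or spanning over 3 Mb, 138 in all, were left out. Alternatives used a pseudocount of 0.5, a minimum of 2 or no minimum, a 1.5-fold limit, and scaling by TMM (edgeR 4.0.16), median of ratios (DESeq2 1.42.0) or gene model totals. Intervals were tested on simulated Poisson counts, the same assumption on which they rest, so this could not cover spread between libraries. PCR duplicates could make the intervals too narrow. The members and lists were chosen with earlier results of these data known. All 8 members were named, up to 4 measured genes per list by largest ratio, and the 5 genes outside the set nearest to Id1 and to Id2; Krt18, Epcam, Tcf3 and Atoh8 were named outside this rule after their values were seen, and flanking genes by position.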

Additional observations from a re-analysis of the deposited data

Results flagged for a closer look

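For 4 of the measured genes the folds against uninduced cells pointed opposite ways at the 2 doxycycline times, each beyond counting error. Of all measured genes, 30.0% were lower at 48 h and 33.6% higher in grown-out cells by this rule, each taken separately. The share of all measured genes with both was not computed, so nothing is read from this count. The log2 ratio was -1.60 at 48 h and 0.59 in grown-out cells for Id1, -1.14 and 0.47 for Id2, -0.88 and 0.86 for Id3, and -0.24 and 0.45 for Smad7. The grown-out over 48 h log2 ratios were 2.18 for Id1, 1.61 for Id2, 1.74 for Id3 and 0.69 for Smad7. Each time is 1 library and both are set against the same uninduced library, so the difference was not tested.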

How the results depend on the processing

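The count of members past 2-fold kept its side under the other pseudocount, the scalings and both other expression minima in all 3 comparisons, at 2 for 48 h against uninduced, 0 for grown-out against uninduced, and 3, or 2 with a mean RPKM of at least 2 (which left 3 members), for grown-out against 48 h. With a limit of 1.5-fold the counts were 4 (Id1, Id2, Id3 and Smad6, lower), 2 (Id1 and Id3, higher) and 4 (Id1, Id2, Id3 and Smad7, higher), as a looser limit must allow; over all measured genes it gave 259 lower and 30 higher, 232 and 85, and 178 and 284, in the same order, against 57 and 2, 56 and 13, and 25 and 56 at 2-fold. A pseudocount of 0.5 left 22 lower and 0 higher, 19 and 6, and 4 and 20. It moved the grown-out over 48 h log2 ratio of Id1 to 1.68 and that of Id3 to 1.05, outside their intervals, because it shrinks ratios of low genes. In all, 5 of the 15 ratios of measured members left their intervals, those of Smad6 and Smad7 among them. Smad7 in grown-out over 48 h went only from 0.69 to 0.63, and its interval is narrow, on 7298 and 5234 reads. The scalings shifted log2 ratios by at most 0.023. Id1 and Id3 rest on 38 and 25 reads at 48 h, and depth limits Id4 and Bambi to no usable fold. No paired analysis was possible because each condition has 1 library.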

Other observations

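Some pathway genes under the expression minimum had enough reads for a fold, and those named here were chosen after their values were seen. They do not stand for their lists. At 48 h against uninduced cells, the ligand gene Bmp8a was 1.79-fold higher (1.04 to 3.13). The folds of Bmp7, at 1.37 (0.803 to 2.35), and of the antagonist gene Nbl1, at 0.835 (0.624 to 1.11), had intervals that included no change. Bmper, another antagonist gene, was 1.21-fold lower (1.08 to 1.37). Grem1, which encodes a secreted BMP antagonist, had 77.1, 13 and 65.7 reads in uninduced, 48 h and grown-out cells, or 0.152, 0.0269 and 0.158 RPKM. It was 5.63-fold lower at 48 h than in uninduced cells (3.1 to 11) and 5.88-fold higher in grown-out than in 48 h cells (3.23 to 11.7), while grown-out over uninduced had an interval that included no change (0.744 to 1.48). Fst, which encodes the activin and BMP antagonist follistatin, had 46, 17 and 23 reads and was 2.57-fold lower at 48 h than in uninduced cells (1.44 to 4.78).

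Bmp4, the ligand gene with the highest level, had 0.363, 0.242 and 0.102 RPKM in uninduced, 48 h and grown-out cells, on 131, 83 and 30 reads. It was 1.5-fold lower at 48 h (1.13 to 2.00) and 3.56-fold lower in grown-out cells (2.38 to 5.49) than in uninduced cells. Its order across the libraries differed from that of the Id genes, which were highest in grown-out cells. Bmp6 had 129, 56 and 30 reads over a far longer model and was 2.19-fold lower at 48 h (1.59 to 3.05) and 3.51-fold lower in grown-out cells (2.34 to 5.41).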
